A study of Mus musculus with 8 samples.

Results

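The sites described here are small H3K27me3 peaks of wild-type mouse embryonic fibroblasts that were still listed as peaks without E2f3. They were chosen from the authors' peak lists by position. Wild-type H3K27me3 peaks on chromosomes 1 to 19 were joined into domains across gaps of up to 5000 bp, and a peak was taken when its domain was 10000 bp or less, when it overlapped an H3K27me3 peak of E2f3-null cells by 1 bp or more, and when it overlapped no wild-type E2F3 peak and no wild-type HELLS peak. This gave 1995 of 17064 wild-type H3K27me3 peaks (11.7%), which lay in 1528 domains. They are called the kept sites below. The choice used the H3K27me3 lists of both genotypes and the wild-type E2F3 and HELLS lists, so values of these antibodies at the kept sites are descriptions and were not tested.

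The fibroblasts were taken at E13.5 and were wild type or E2f3-/-, a germline genotype named in the labels with no further detail of the allele. Chromatin of each genotype was immunoprecipitated with an antibody to H3K27me3, to HELLS or to E2F3, and with control IgG. Each genotype and antibody had 1 library, which gave 8 samples in 8 groups, so every comparison below is between 2 libraries and carries no p-value. The number of embryos or cultures behind a library is not stated in the labels, and with no expression data the fibroblast label was not checked against marker genes. Intervals are exact 95% intervals and cover counting error only. In bulk chromatin, fewer cells with the mark and less mark per cell cannot be told apart.

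H3K27me3 is trimethylation of lysine on histone H3, laid down by the EZH2 or EZH1 enzyme of Polycomb repressive complex 2. The mark is read by the same complex through its EED subunit and by CBX proteins of Polycomb repressive complex 1, and in fibroblasts it covers silent developmental genes, often as short peaks at CpG-rich promoters and as long domains over gene clusters. E2F3 belongs to the E2F transcription factors, which bind promoters of cell cycle genes, and it is restrained by the retinoblastoma protein. HELLS, also called LSH, is an SNF2-type chromatin remodeler known for its part in DNA methylation.

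The 6 immunoprecipitated libraries held between 3799779 and 5640555 distinct reads, and IgG held 7219419. Wild-type and E2f3-null IgG files held the same reads and were counted as 1 library, so the IgG values carry no genotype. The H3K27me3 library was the deepest of the 6 in wild-type cells and the shallowest in E2f3-null cells. Reads at the kept sites made up 3.43% (3.41 to 3.44) of the wild-type H3K27me3 library and 1.58% (1.57 to 1.59) of the E2f3-null one. For the E2F3 antibody the wild-type share was 0.457% and the E2f3-null share 0.413%. The HELLS shares were 0.415% and 0.412%, and the IgG share was 0.354%.

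The kept sites were wider and stronger than the small sites listed in wild-type cells only, and narrower and weaker than the small kept sites with an E2F3 or HELLS peak. Their median width was 1099 bp (quartiles 682.5 and 1662.5), beside 469 bp (391 and 643) for the 9101 small sites without an E2F3 or HELLS peak that were listed in wild-type cells only. The median wild-type score of the authors, which is 10 times the negative log10 of the peak's p-value, was 315 at kept sites and 67.9 at the wild-type-only sites. A score of 100 or more was given to 78.2% of the kept sites and to 23.5% of the wild-type-only sites. The authors' fold over the local expectation had a median of 18.3 at kept sites and 13.3 at wild-type-only sites. The 698 small kept sites with an E2F3 or HELLS peak had a median width of 1603.5 bp and a median score of 715, and all 17064 peaks 590 bp and 85.3.

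Most kept sites had neighbours. Of the 1528 domains, 552 consisted of a single peak and 976 held 2 or more. In 125 of these 976 every peak was a kept site, while 784 domains also held at least 1 wild-type-only peak. Within those 784 mixed domains the kept sites had a median of 58 wild-type and 21 E2f3-null H3K27me3 reads, and their wild-type-only neighbours had 15 and 6. The kept site was the peak with more wild-type reads in 668 of the 784 (85.2%). Null H3K27me3 reads over wild-type ones had a median log2 ratio of -0.98 for the kept sites of mixed domains and -1.16 for their neighbours. In mixed domains the kept sites thus had more reads than their neighbours in both genotypes. They were also wider, with a median of 1080.5 bp beside 533 bp. The 2 groups were split by the null peak list, which itself depends on read number.

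The null peaks that made a site count as kept were narrower and weaker than the wild-type peaks they overlapped. The 1995 sites met 2230 null peaks, which is 31.5% of the null list, with a median width of 681 bp and a median score of 82.9. Widths and scores are the caller's and were not adjusted for depth. The null library held 3799779 distinct reads and the wild-type one 5640555, and the part of depth in this difference was not tested. A single null peak was met by 1667 sites and 2 to 4 null peaks by 328, and 276 sites shared a null peak with another kept site. The null peaks covered a median of 68.2% of a kept site (quartiles 49.5 and 84.6), and 127 sites were covered whole. The wild-type summit and the nearest null summit lay a median of 130 bp apart (quartiles 42 and 330.5), and within 100 bp of each other at 883 sites (44.3%). At 56 sites they were more than 1000 bp apart. Of the 2230 null peaks, 1323 (59.3%) carried a false discovery rate over 5% in the authors' table, beside 65.3% of the whole null list. At 1085 kept sites (54.4%) no overlapping null peak had a rate of 5% or less.

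The limits of the rule passed through a continuous range. The smallest overlap with a null peak was 1 bp, and 39 sites overlapped by 50 bp or less, while 57 wild-type-only sites ended within 50 bp of a null peak without touching it. Among domains with a kept site, the longest under the limit was 9987 bp on chromosome 6, with 295 wild-type and 96 E2f3-null H3K27me3 reads in its peaks, a ratio of 0.437 (0.343 to 0.552). The shortest domain over the limit was 10004 bp on chromosome 15, with 306 and 97 reads and a ratio of 0.426 (0.335 to 0.537). The domains just inside and just outside the length limit therefore had ratios whose intervals overlapped.

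H3K27me3 reads were fewer in the E2f3-null library at most kept sites, although each still overlapped a null peak. Each library was scaled by its distinct reads that lay in no peak region of any library, and 0.5 was added to both counts for log2 ratios. The wild-type library had a lowest, median and highest count of 7, 65 and 797 reads per kept site, and the E2f3-null library had 0, 22 and 218. As a log2 ratio, null reads over wild-type reads had a median of -1.05 (quartiles -1.44 and -0.47) at kept sites, beside -1.32 (-1.87 and -0.80) over all 17064 peaks. The 1995 sites summed to 193448 wild-type reads and 59958 null reads, which is 0.416 after scaling (0.412 to 0.420). The same sum gave 0.341 (0.338 to 0.345) at the wild-type-only sites and 0.435 (0.432 to 0.439) at peaks of domains over 10000 bp.

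The criterion for a lower or higher site was a scaled change of 2-fold or more whose interval excluded 1. By it 1027 kept sites (51.5%) were lower and 0 higher. Over all wild-type H3K27me3 peaks 46.4% were lower and 0.00586% (1 peak) higher. The rule used this contrast, so the shares only describe the sites. The call also depends on read number. Among kept sites 1.56% were lower at fewer than 10 wild-type reads and 94.2% at 160 or more. The median was 65 wild-type reads at kept sites and 18 over all peaks, so the 2 shares are not set at like counts. At 205 kept sites (10.3%) the log2 ratio was above 0, beside 122 of the 9101 wild-type-only sites and 603 of all 17064 peaks. These 205 were weak peaks with a median of 13 wild-type and 12 E2f3-null reads and at most 43 wild-type reads. A weak site was kept only where a null peak was listed, so high null reads are part of the choice. With libraries scaled so that wild-type peaks overlapping a null peak had a median log2 ratio of 0, the log2 ratios moved up by 1.05, and 2.11% of the kept sites were lower and 5.41% higher. That scaling sets the common change of shared peaks to none, and the kept sites are 1995 of the 4465 such peaks.

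**Figure D1:**
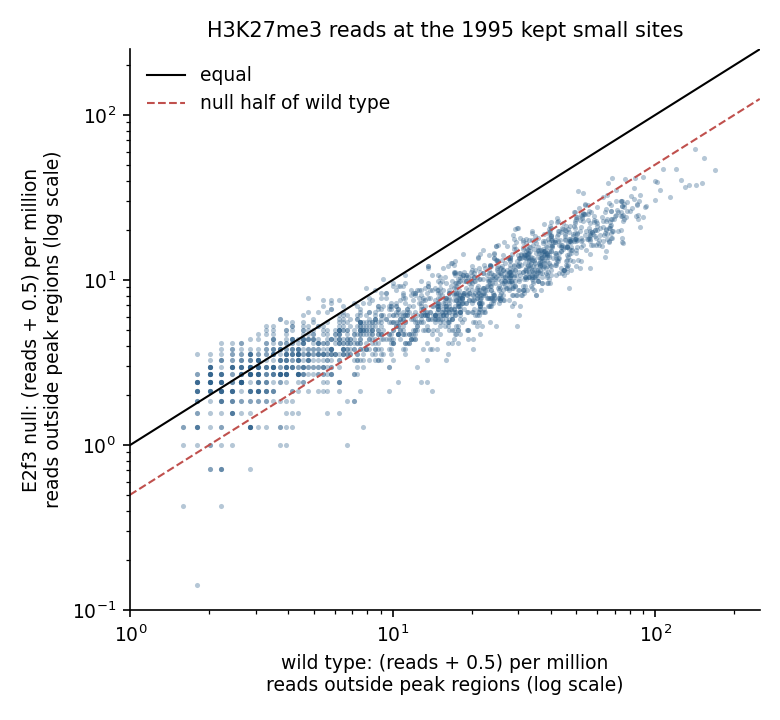
H3K27me3 reads at each of the 1995 kept sites in wild-type (x axis) and E2f3-null cells (y axis), as reads plus 0.5 per 1000000 reads outside peak regions on log scales. Points follow the line of equal reads at the weak end, where counts are near 10 reads, and at 160 or more wild-type reads 390 of 414 sites were called lower, so most lie under the dashed line of 0.5.

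Over all small sites without E2F3 or HELLS, the share that was kept followed the wild-type signal. Among sites with fewer than 10 wild-type reads 2.82% were kept (64 of 2268), and among those with 10 to 19 reads 339 of 4846. The share was 18.4% at 20 to 39 reads, 37.3% at 40 to 79 and 70.6% at 80 to 159. At 160 or more reads 94.1% were kept (414 of 440). The kept sites of the lowest class had a median log2 ratio of 0.25, and this median went down class by class, through -0.13, -0.59, -1.05 and -1.33, to -1.52 in the highest class. Medians over kept and wild-type-only sites jointly ran only from -1.28 to -1.53 over the same classes. The 878 kept sites with 80 or more wild-type reads had a summed ratio of 0.372 (0.368 to 0.376), and 87.6% of them were lower.

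**Figure D2:**
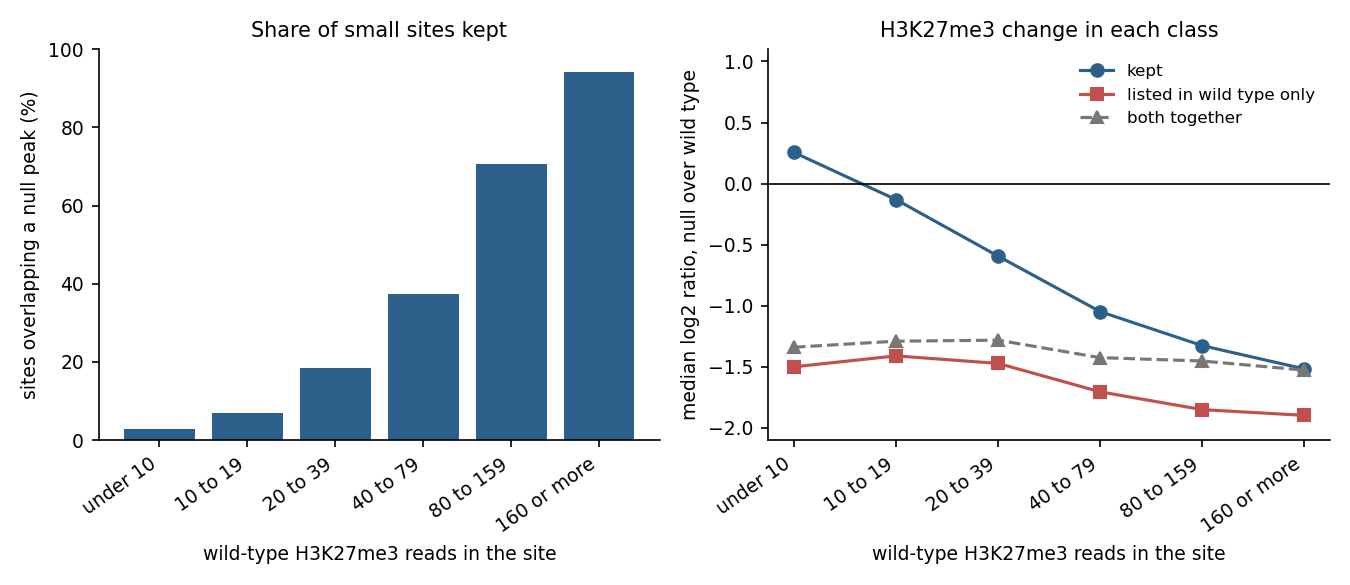
Small sites without an E2F3 or HELLS peak in 6 classes of wild-type H3K27me3 reads, with the percent that overlap an E2f3-null peak (left) and the median log2 ratio, null over wild-type, (right) for kept sites, wild-type-only sites and both together. The kept share climbs from 2.82% to 94.1%, the kept median descends from 0.25 to -1.52, and the joint median stays between -1.28 and -1.53.

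Spearman correlations of the log2 ratio across the 1995 kept sites were -0.762 with H3K27me3 reads of wild-type cells and -0.610 with width. The ratio contains the wild-type reads, the rule asks for a null peak at every site, and sites share their libraries, so these values are descriptions. The correlation with IgG reads per kb was -0.604, and IgG reads per kb themselves had 0.702 with wild-type H3K27me3 reads. With the percent of the site covered by null peaks it was 0.221.

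The 8 kept sites with the highest wild-type scores had H3K27me3 ratios well under 1. A null peak at each is required by the rule. The choice by wild-type score also favours low ratios, since the score had a Spearman correlation of -0.744 with the log2 ratio across kept sites. They lay on chromosomes 2, 4, 5, 7, 12, 14 and 18, and 6 of them shared the score of 3100. The site on chromosome 2 from 25431844 to 25436042 (mm9 here and below) had the most wild-type H3K27me3 reads of all kept sites. It held 797 wild-type and 163 E2f3-null H3K27me3 reads, 63 and 46 E2F3-antibody reads, 61 and 70 HELLS reads, and 70 IgG reads. Its H3K27me3 ratio was 0.275 (0.231 to 0.325), and it was a domain of its own.

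On chromosome 14 from 80167771 to 80171250 there were 710 and 136 H3K27me3 reads, a ratio of 0.257 (0.213 to 0.309), the lowest of the 8. Its E2F3-antibody reads were 56 and 50, its HELLS reads 61 and 58, and its IgG reads 53. The null peak covered 95.4% of this site and the summits lay 3 bp apart. On chromosome 12 from 8304200 to 8310453, the widest kept site at 6254 bp, there were 667 and 218 H3K27me3 reads, a ratio of 0.439 (0.375 to 0.512) and the highest of the 8. This site also held the most E2f3-null H3K27me3 reads. E2F3-antibody reads there were 52 and 51, HELLS reads 63 and 74, and IgG reads 56.

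The site on chromosome 5 from 35620381 to 35624272 had the highest score, 3233.06, with 568 and 164 H3K27me3 reads. HELLS had 47 and 71 reads there, with a ratio between 1.02 and 2.22, and the E2F3 antibody 35 and 42, with a ratio of 1.25 (0.777 to 2.01). Both antibodies had a listed peak at this site in E2f3-null cells alone. On chromosome 4 from 152854677 to 152857947 there were 390 and 109 H3K27me3 reads, a ratio of 0.375 (0.301 to 0.465), with 26 and 37 HELLS reads and a null HELLS peak. On chromosome 7 from 51606756 to 51610718 there were 675 and 131 H3K27me3 reads, 45 and 35 HELLS reads, and no null peak of either antibody. The ratios of H3K27me3 at these strongest sites lay between 0.257 and 0.439, and no interval among the 8 reached 1. Scaled to shared peaks the ratios were higher, up to 0.906 at the chromosome 12 site, where the interval did reach 1 (0.774 to 1.06).

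The null scores were led by other sites. The kept site on chromosome 13 from 49241461 to 49244099 overlapped the null peak with the highest score, 1300.51, and held 505 wild-type and 164 E2f3-null H3K27me3 reads, a ratio of 0.436 (0.363 to 0.521). Its E2F3-antibody reads were 55 and 27, a ratio of 0.510 (0.309 to 0.823), although no wild-type E2F3 peak was listed there. A pair of kept sites in the same domain on chromosome 5 shared the next null peak. The larger, from 24030430 to 24033388, had 322 and 145 H3K27me3 reads, a ratio of 0.605 (0.494 to 0.738), and the smaller, from 24033402 to 24034028, had 23 and 19, a ratio of 1.11 (0.571 to 2.13). The site on chromosome 12 from 111518491 to 111519252 met a null peak of score 1240.44 over 93 bp alone, 12.2% of its width, and held 43 and 12 reads itself. The fifth, on chromosome 5 from 118618708 to 118621167, held 251 wild-type and 118 null H3K27me3 reads (ratio 0.631, 0.503 to 0.789) and lay 568 bp from a wild-type E2F3 peak. A high null score could therefore belong to a null peak centred outside the kept site.

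The ratio differed between kept sites whose intervals excluded 1. No kept site had an interval above 1, so only ratios under 1 were ranked here. The 205 sites with a log2 ratio above 0 were thereby left out. The 5 highest ratios ran from 0.680 to 0.691. The highest, 0.691 (0.511 to 0.926), came from 138 wild-type and 71 null reads on chromosome 5 from 100587702 to 100588874. Next were a site on chromosome 2 from 165419658 to 165421612, with 140 and 72 reads, and a site on chromosome 4 from 128813462 to 128815192, with 141 and 72. At the chromosome 4 site the E2F3-antibody reads were 28 and 11, a ratio of 0.408 (0.183 to 0.846). Scaled by all distinct reads the 5 ratios lay between 0.752 and 0.764, and the intervals of 4 of them included 1. Scaled to shared peaks, each of these 5 ratios turned to between 1.40 and 1.43.

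The 5 lowest ratios belonged to sites that touched a null peak only at an edge. At these sites the null peak covered between 2.90% and 9.20% of the wild-type peak. The only kept site without a null read, on chromosome 8 from 12478232 to 12478557, had 8 wild-type reads. The interval of its ratio ran from 0 to 0.787. With reads moved by 100 bp the ratio was 0.168 and its interval included 1 (0.00378 to 1.25). The site with the most reads among the 5, on chromosome 1 from 164407134 to 164408374, held 66 and 7 reads, with a ratio of 0.142 (0.0551 to 0.310). One domain on chromosome 17 held both extremes. Its peak from 93600002 to 93602560 had 104 and 53 H3K27me3 reads, a ratio of 0.684 (0.482 to 0.962), and the next peak, from 93603026 to 93603556, had 31 and 3, a ratio of 0.130 (0.0254 to 0.417).

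The mark at kept sites was a narrow summit on a broad shoulder in both genotypes. Within 250 bp of the wild-type summit the wild-type library had a mean density of 21.2 reads per kb per 1000000 reads outside peak regions, and the E2f3-null library 8.13. Between 1000 and 2000 bp it was 5.09 and 3.05, and between 10000 and 20000 bp 1.34 and 1.00. Set against its own level at 10000 to 20000 bp, the summit was 15.9 times as dense in the wild-type and 8.13 times as dense in the E2f3-null library. This contrast is taken within a library, without scaling between libraries, but from the same reads at the same chosen sites. Around the summits of the overlapping null peaks the same contrast was 14.1 for the wild-type library and 8.92 for the E2f3-null one.

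At wild-type-only sites the wild-type summit density was 6.56 and the E2f3-null one 2.23, or 4.88 and 2.30 times the level at 10000 to 20000 bp. The shoulder between 1000 and 2000 bp was 2.36 and 1.57 there, under the shoulder of the kept sites in both genotypes. Small kept sites with an E2F3 or HELLS peak had a shoulder 3.89 and 3.30 times their level at 10000 to 20000 bp. The kept sites had 3.81 and 3.05 times, so the shoulder is not particular to them. The summit of the sites with an E2F3 or HELLS peak was 34.6 and 18.0 times that level. Nearby kept sites share reads in these outer windows, since domains can hold several sites.

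**Figure D3:**
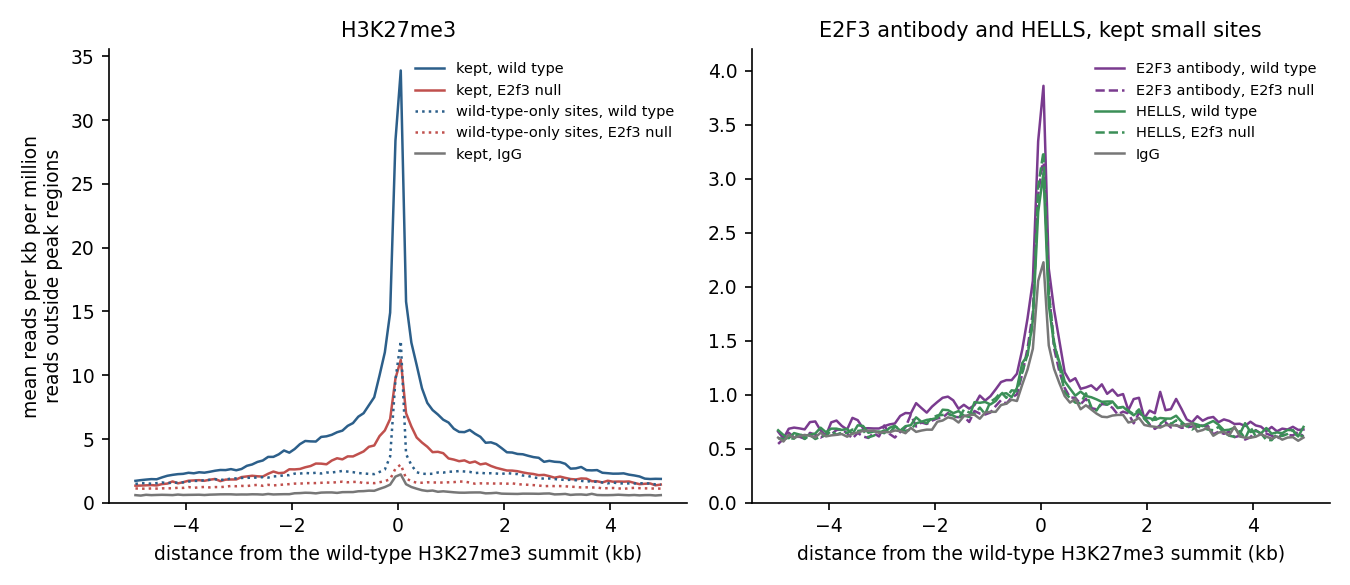
Mean read density by distance from the wild-type H3K27me3 summit, in 100 bp bins. The left panel has H3K27me3 at kept and wild-type-only sites, and IgG at kept sites. The right panel, with a smaller y scale, has the E2F3 antibody, HELLS and IgG at kept sites. The H3K27me3 summit of kept sites is lower in E2f3-null than in wild-type cells and stands on a shoulder of several kb, and every other library, IgG included, has a small summit at the same place.

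Enrichment over IgG follows the choice of sites, since a kept site overlaps a null H3K27me3 peak that was called against IgG and a wild-type-only site does not. Its values are given as a description. The median log2 ratio of H3K27me3 to IgG reads was 3.33 in wild-type cells (quartiles 2.89 and 3.76) and 2.33 in E2f3-null cells (1.85 and 2.81). Over all wild-type peaks these medians were 2.77 and 1.54, and at wild-type-only sites 2.53 and 0.98. In E2f3-null cells 1946 of the 1995 kept sites (97.5%) had a log2 enrichment of 1 or more, and so did 48.1% of the wild-type-only sites. IgG itself was dense at the kept sites, with a median of 8.31 reads per kb beside a mean of 3.86 per kb of the authors' effective genome. It was 2.84 times as dense within 250 bp of the summit as at 10000 to 20000 bp. The same contrast of IgG was 1.70 at wild-type-only sites and 4.85 at small kept sites with an E2F3 or HELLS peak. The part of this IgG signal in the other libraries' reads was not tested.

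The E2F3 antibody gave few reads at kept sites in either genotype, where the rule allowed no wild-type peak. The wild-type library had a lowest, median and highest count of 0, 7 and 70 reads per site, the E2f3-null library 0, 6 and 69, and IgG 0, 9 and 70. Set against IgG, the wild-type library had a median log2 enrichment of 0.45 and the E2f3-null library 0.24. Summed wild-type reads were 21834 and summed null reads 17755, a ratio of 0.845 (0.828 to 0.862), and the median log2 ratio was -0.17. Scaled to shared peaks the summed ratio was 1.05 (1.03 to 1.07), so the direction of this small difference depended on the scaling. At the 698 small kept sites that did carry an E2F3 or HELLS peak the summed ratio was 0.559 (0.548 to 0.569). Those sites were chosen by wild-type peaks, so a high wild-type count is part of the choice. Of the kept sites, 66 (3.31%) were lower and 13 (0.652%) higher for the E2F3 antibody, beside 5.66% and 0.393% of all wild-type H3K27me3 peaks. All peaks include those with a wild-type E2F3 peak, which the rule leaves out of the kept sites. The shares were 1.01% and 0.352% at the wild-type-only sites, which also have none.

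HELLS reads summed over the kept sites were nearly equal in the libraries of the genotypes, and the side of a small difference depended on which sites and windows were counted. Each site held 0, 8 and 75 wild-type reads as lowest, median and highest, and 0, 7 and 82 E2f3-null reads. The sums were 22082 and 22154 reads, a ratio of 0.996 (0.978 to 1.02), and the median log2 ratio was -0.0099. The summed ratio was 1.05 (1.02 to 1.08) in 500 bp at the wild-type summits, 1.03 (1.01 to 1.05) at sites with 80 or more wild-type H3K27me3 reads, and 0.932 (0.912 to 0.953) at sites without an E2F3-antibody or HELLS peak in E2f3-null cells. The last set drops sites by their null peaks, so a lower null HELLS count is part of that choice. HELLS was lower at 27 sites (1.35%) and higher at 16 (0.802%), beside 0.844% and 0.633% of all wild-type H3K27me3 peaks. Its interval lay below 1 at 33 of the 1995 kept sites and above 1 at 25, beside 164 and 193 of all 17064 peaks. Single sites named for such an interval are therefore no finding. The 3 sites with the most HELLS reads over both genotypes had 17.5, 24.6 and 8.95 IgG reads per kb. On chromosome 2 from 146046092 to 146050029 HELLS had 75 wild-type and 82 null reads, beside 70 and 69 E2F3-antibody reads, 69 IgG reads, and 723 and 192 H3K27me3 reads. On chromosome 17 from 84029825 to 84032347 there were 67 and 71 HELLS reads, 67 and 54 E2F3-antibody reads and 62 IgG reads. These sites had HELLS ratios of 1.09 (0.784 to 1.51) and 1.05 (0.743 to 1.49), so neither differed from 1 beyond counting error. The third is the wide chromosome 12 site above, with 63 and 74 HELLS reads. On chromosome 5 from 98613610 to 98616206, a site named for its E2F3-antibody reads, there were 46 and 71 HELLS reads, a ratio of 1.53 (1.04 to 2.27), 66 and 48 E2F3-antibody reads and 60 IgG reads. Across kept sites, reads per kb of these antibodies had Spearman correlations of 0.596 to 0.644 with IgG reads per kb.

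**Figure D4:**
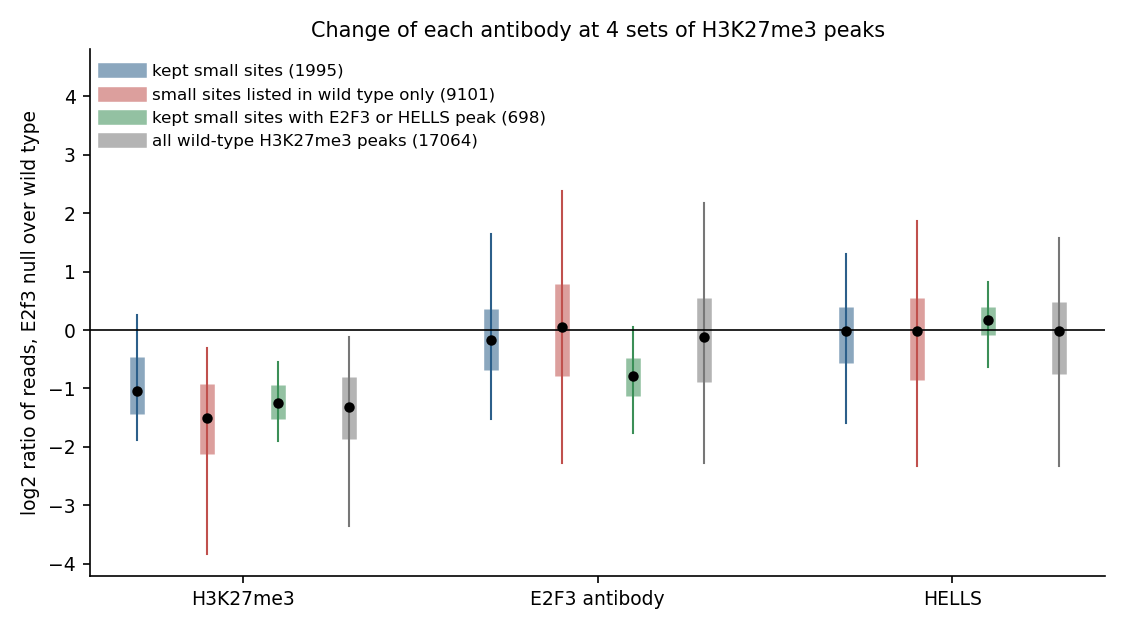
Log2 ratio of null over wild-type reads for H3K27me3, the E2F3 antibody and HELLS at 4 sets of wild-type H3K27me3 peaks. Dots are medians, thick bars run between the quartiles and thin lines from the 5th to the 95th percentile over peaks. The kept sites have medians of -1.05, -0.17 and -0.0099.

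Changes of the 3 antibodies had only small rank correlations across kept sites. The H3K27me3 log2 ratio had a Spearman correlation of 0.0419 with that of the E2F3 antibody and -0.0610 with that of HELLS, over 1995 sites that share libraries and hold few reads of these antibodies. The log2 ratios of the E2F3 antibody and HELLS had 0.0458 with each other. In counts this sparse the values are no finding, and they do not show whether the changes were ordered alike.

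Although no kept site carried a wild-type HELLS or E2F3 peak, some overlapped a peak of these antibodies in E2f3-null cells. The lists themselves were unlike. The wild-type HELLS list held 2489 peaks, 2196 of them with a false discovery rate over 5%, and the null list 4740, with 0 over 5%. For the E2F3 antibody the wild-type list held 8889 peaks and the null list 3314. The part of list length and calling in these overlaps was not tested. A null HELLS peak lay on 188 kept sites (9.42%), on 0.758% of the wild-type-only sites and on 7.40% of all wild-type H3K27me3 peaks. The null list of the E2F3 antibody had a peak on 127 (6.37%), on 0.604% and on 4.65%. Of the small kept sites with a wild-type E2F3 or HELLS peak, 64.5% overlapped a null HELLS peak and 39.8% a null E2F3-antibody peak. The 188 sites with a null HELLS peak were strong H3K27me3 sites, with a median of 169.5 wild-type and 49.5 E2f3-null H3K27me3 reads, and had 12.9 IgG reads per kb. Their wild-type HELLS reads summed to 4797 and their null reads to 5881, a ratio of 1.22 (1.17 to 1.27). The null list picked these sites, so a high null count is part of the choice. The other 1807 sites had 0.935 (0.915 to 0.955), and a lower null count is likewise part of their choice. The H3K27me3 ratio was 0.397 (0.389 to 0.406) with and 0.421 (0.417 to 0.425) without a null HELLS peak. Sites without one had a median of 55 wild-type H3K27me3 reads, beside 169.5. The part of read number in this difference was not tested.

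Kept sites lay far from E2F3 and HELLS peaks in most cases. The nearest wild-type E2F3 peak was a median of 55948 bp away and the nearest wild-type HELLS peak 189812 bp. For the wild-type-only sites these medians were 51517 and 172498 bp. A wild-type E2F3 peak lay within 1000 bp of 95 kept sites (4.76%) and within 10000 bp of 360 (18.0%). The same shares were 3.15% and 15.35% at the wild-type-only sites, and 13.6% and 27.6% over all wild-type H3K27me3 peaks. All peaks include those that overlap an E2F3 peak, which the rule leaves out of the kept sites. The 95 nearest sites had a median of 31 wild-type and 17 E2f3-null H3K27me3 reads and a summed ratio of 0.537 (0.510 to 0.566). The 1635 sites more than 10000 bp away had 75 and 24 reads and a ratio of 0.410 (0.406 to 0.414). The nearer sites thus had fewer wild-type reads as well as a higher ratio, and the part of their lower reads in the ratio was not tested.

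Every autosome held kept sites, from 34 on chromosome 16 to 212 on chromosome 7. The kept share of small sites without E2F3 or HELLS ran from 13.1% on chromosome 16 to 22.4% on chromosome 7. The median log2 H3K27me3 ratio of the kept sites ran from -1.25 on chromosome 17 to -0.83 on chromosome 9, so the lower reads were not those of a few chromosomes.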

How the data were processed

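Reads of 36 nucleotides were sequenced from a single end, per the labels' protocols, after 22 PCR cycles and a cut of 200 to 300 bp fragments. Each line of a deposited read file is an aligned read with its strand. The build is mm9 (submitters' processing notes), and the aligner is not given in the sources used here. Peaks were called per library with MACS 1.4.0beta against IgG at a p cutoff of 1e-05, per the file headers. The deposited peak tables give a count of tags, a score, a fold enrichment as a ratio, and a false discovery rate in percent, all as the authors' caller wrote them. The headers name separate IgG controls for the genotypes (3444066 and 3791438 tags), while the deposited IgG files were identical.

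From the reads, 1 per position and strand was kept, moved by 60 bp towards the fragment centre and counted in each wild-type H3K27me3 peak. Counts were scaled by distinct reads outside 27089 merged peak regions (21.5 Mb). Ratios carry exact conditional binomial intervals, shares of reads exact Clopper-Pearson intervals. The criteria were run on all 17064 peaks and tested on simulated counts. The alternatives changed the member rule, scaling, duplicates, counted interval, read shift, threshold and added count. Named sites were those with the highest scores, the most extreme ratios, and the most E2F3-antibody, HELLS or IgG reads. Sites and rules were chosen with earlier results of these data known. Gene names were not used, since the gene table given (GRCm38) is of another build. Python 3.11.15, numpy 2.4.6, scipy 1.17.1 and pandas 2.3.3 were used.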

Additional observations from a re-analysis of the deposited data

How the results depend on the processing

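No paired analysis was possible because each group had 1 library. The number of sites depended on the rule: it was 3253 with joining across gaps of up to 1000 bp, 3017 with the rule read on whole domains, 982 with wild-type and null peaks of score 100 or more and domains formed anew from them, 910 with null peaks of a false discovery rate of 5% or less, and 878 with 80 or more wild-type reads. The H3K27me3 median log2 ratio of -1.05 ran from -1.42 (80 or more wild-type reads) to -0.82 (500 bp at the null summit), and was -0.0023 when libraries were scaled to the median of shared peaks. Under that scaling 2.11% of sites were lower and 5.41% higher. The lower share was 87.6% among sites with 80 or more wild-type reads. The higher share was 0.0362% with domains up to 20000 bp, 0.102% with score 100 or more and 1.15% with a 500 bp window at the null summit. The HELLS summed ratio of 0.996 had an interval above 1 in 500 bp at the wild-type summit (1.05) and at the null summit (1.06), and with score 100 or more, null false discovery rates of 5% or less, and 80 or more reads (1.03 each), and one below 1 without null E2F3-antibody or HELLS peaks (0.932). Leaving out sites with null peaks lowers the null count by choice. The E2F3-antibody summed ratio of 0.845 turned to 1.05 under the scaling to shared peaks.

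Among named sites, that scaling turned the ratios of chromosome 17 from 93600002 to 1.41, chromosome 2 from 165419658 to 1.43 and from 180771827 to 1.40, chromosome 4 from 128813462 to 1.42, and chromosome 5 from 24030430 to 1.25, from 100587702 to 1.43 and from 118618708 to 1.30. A 500 bp window at the null summit, which for sites touched at an edge lies mostly outside the site, gave 1.34 for chromosome 1 from 164407134, 1.57 for chromosome 12 from 104554087, 1.45 and 1.88 for chromosome 17 from 93600002 and 93603026, 1.01 for chromosome 8 from 12478232 and 0.587 for chromosome 5 from 24033402. The last site had 0.678 over the union with its null peak. The null-summit window, the sites with 80 or more reads and the sites without null E2F3-antibody or HELLS peaks were chosen after seeing the data. Scaling by all distinct reads moved log2 H3K27me3 ratios by 0.14. With a median of 6 to 9 E2F3-antibody, HELLS and IgG reads per site, changes of these antibodies at single sites were mostly not detectable at this depth.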
